A study of Arabidopsis thaliana with 18 samples.

Results

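The phytochrome-interacting factors (PIFs) and their antagonists are a group of basic helix-loop-helix (bHLH) genes, described here in leaves of Arabidopsis thaliana kept in air or under water. The 10 genes were taken by identifier from the 32833 genes in the deposited table. They are PIF1 (AT2G20180), PIF3 (AT1G09530), PIF4 (AT2G43010), PIF5 (AT3G59060), PIF6 (AT3G62090), PIF7 (AT5G61270), PIL1 (AT2G46970), HFR1 (AT1G02340), PAR1 (AT2G42870) and PAR2 (AT3G58850). Of these, 9 reached 1 TPM (the transcript abundance unit of the deposited table, a length-normalized share of each library) in at least 3 libraries and were tested, and PIF6 did not.

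In the RefSeq annotation of build TAIR10.1 the plus strand carries PIF3 at chr1:3075768-3079654 and PIF4 at chr2:17886101-17889087. The minus strand carries PIF1 at chr2:8704024-8707009, PIF5 at chr3:21827905-21830837, PIF6 at chr3:22988547-22990709, PIF7 at chr5:24638491-24640765, PIL1 at chr2:19295431-19297858, HFR1 at chr1:465616-467880, PAR1 at chr2:17836416-17837618 and PAR2 at chr3:21759350-21760390.

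PIF proteins bind G-box and related E-box motifs and drive shade, warmth and dark growth, among others by raising auxin synthesis genes, while they hold back chlorophyll and light-harvesting genes. Photoactivated phytochromes bind PIFs and cause their breakdown, so their activity is set largely at the protein level, which RNA does not measure. HFR1, PAR1 and PAR2 are atypical helix-loop-helix proteins that bind PIFs and keep them off DNA, and their own genes are among those that PIFs raise in shaded seedlings.

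The groups were leaves of 4-week-old plants of 3 lines: phyA-211, which carries a mutation in PHYA, the gene for the phytochrome that senses far-red light, ein3eil1, mutated in the ethylene-signalling regulators EIN3 and EIL1, and wild type. Each line was submerged for 6 hours or kept in air, with 3 libraries in each of the 6 groups, and all 18 sample titles also carry the word mock. The series title connects PHYA with escape from submergence in amphibious plants. The labels give no ein3 or eil1 allele, light or time of day during submergence, or origin of the replicates. Each p-value therefore speaks only of how libraries within groups varied, which may be technical. The fit pools that variation over all 6 groups, also those not compared, and it was widest in submerged phyA-211. Fitting only the groups compared took genes with adjusted p under 0.05 from 39.1% to 6.74% in submerged phyA-211 against submerged wild type. It took them from 28.3% to 47.7% in ein3eil1 against wild type in air.

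PHYA stood at 7.5, 10.6 and 12.8 TPM in submerged phyA-211 and at 1.2, 1.2 and 1.83 TPM in phyA-211 in air, below the lowest wild-type library of the same condition (22.0 TPM submerged, 10.8 TPM in air). EIL1 lay between 6.9 and 17.03 TPM in the 6 ein3eil1 libraries, against 38.2 to 69.5 TPM in the 6 wild-type ones. EIN3 was lower in ein3eil1 in air (log2 difference -1.09, limma adjusted p = 0.0123) but not called under submergence (-0.29, adjusted p = 0.423). The 3 submerged phyA-211 libraries differed more among themselves than those of any other group (median SD over genes 0.36 on the log2 scale, where submerged wild type had 0.10). Replicate 1 of submerged phyA-211 stood apart from replicates 2 and 3, and results that rest on it are given with and without it. The 4 flower markers AP1, AP3, PI and AG summed to 6.7 to 13.4 TPM in submerged phyA-211, 0.88 to 27.7 in phyA-211 in air, 5.85 to 39.0 in submerged ein3eil1, 0.99 to 59.5 in ein3eil1 in air, 5.23 to 6.24 in submerged wild type and 1.3 to 6.57 TPM in wild type in air. The 4 root markers summed to at most 0.23 TPM, with PLT1 and EXPA7 at 0 throughout, and the 4 leaf markers to at least 6068 TPM. In whole leaves, fewer cells of a type and less RNA per cell cannot be told apart.

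Under submergence the members did not move as one. PIF3 and the antagonist PAR1 were higher in submerged than in air-kept plants of phyA-211 and wild type. PAR2, also an antagonist, was higher in wild type. Its call in phyA-211 was lost after median centring (defined below) and without submerged replicate 1, and its libraries overlapped there. HFR1, a further antagonist, was called in no line before centring. PIF4, the PIF of warmth and shade growth, was lower in ein3eil1 and wild type. In ein3eil1 no member was called higher, and PAR1 and PAR2 stayed near their air levels. The log2 fold changes given compare group means on the log2(TPM + 1) scale, where changes of genes near 0 TPM come out too small, and a call is a limma adjusted p under 0.05 over all 20302 tested genes.

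**Figure D1:**
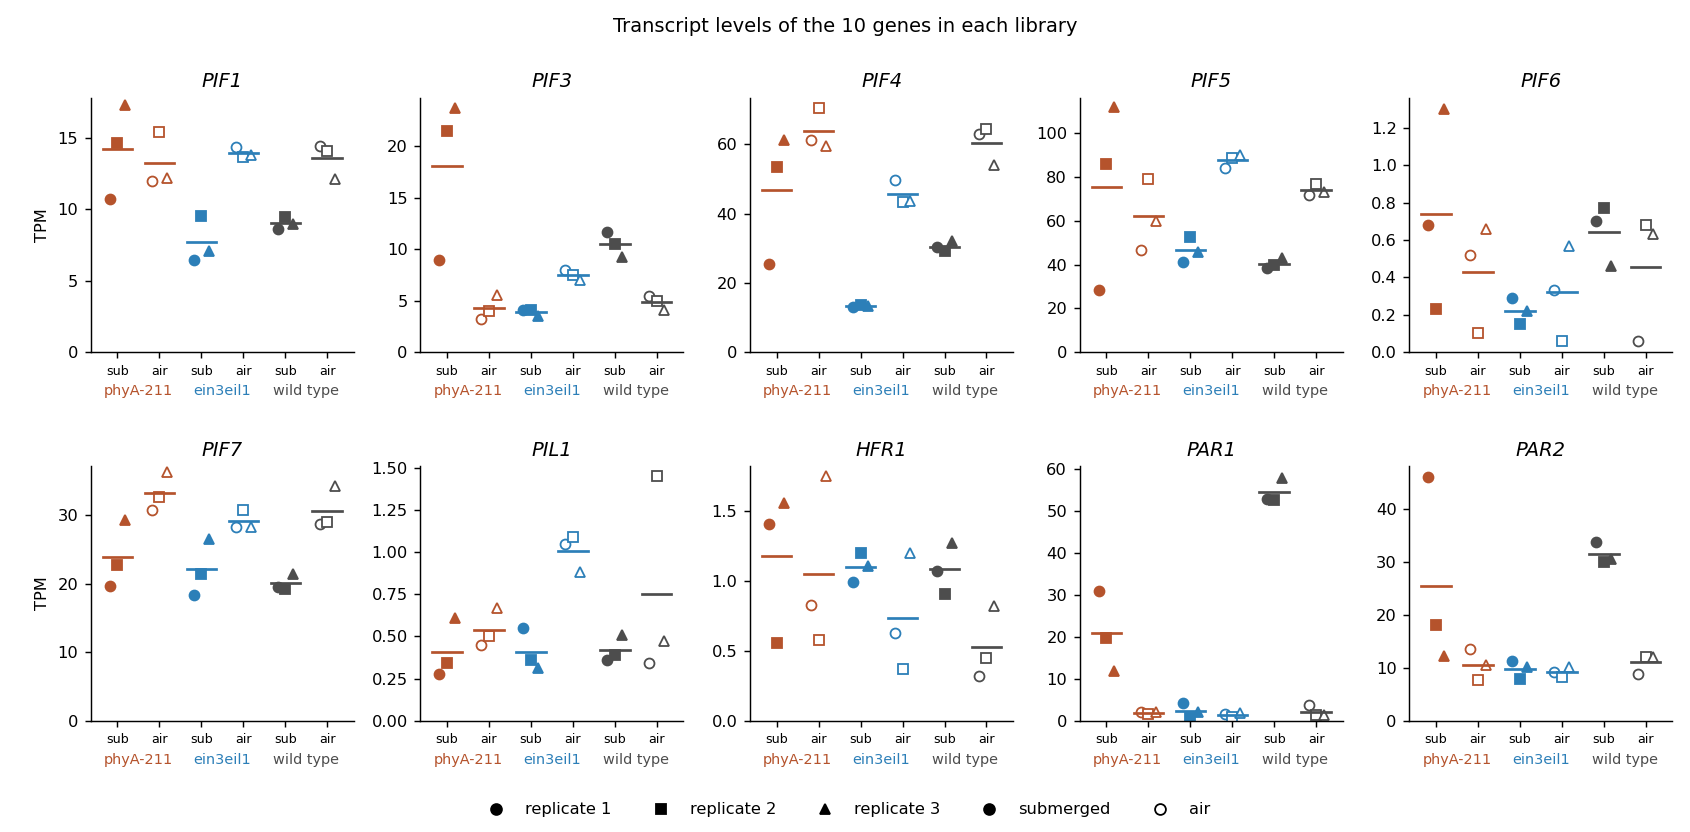
TPM of each of the 10 genes (one panel per gene, linear axis from 0) in the 18 libraries, with filled symbols for submerged and open ones for air, the symbol's shape giving the replicate number and the bar the mean of 3 libraries. The 3 submerged wild-type libraries lie between 52.5 and 57.7 TPM of PAR1, above every other library, and submerged phyA-211 replicate 1 is the lowest of its group for PIF1, PIF3, PIF4, PIF5 and PIF7 and the highest for PAR1 and PAR2.

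In submerged phyA-211, 3 of the 9 tested members were called higher and 1 lower, while 27.3% of all tested genes were called higher and 23.9% lower. In submerged ein3eil1, 0 members were called higher and 6 lower, beside 17% and 47.3% of all genes. For the zero, limma gave no member higher at an unadjusted p under 0.05 either. In submerged wild type, 3 members were called higher and 4 lower, beside 18.9% and 38% of all genes. The median log2 fold change of the tested members was 0.09 in phyA-211, -0.51 in ein3eil1 and -0.25 in wild type, where all tested genes had medians of 0.07, -0.48 and -0.32. Since those medians lie below 0 in ein3eil1 and wild type, values are also given after subtracting the median of every library (median centring) where that changes a call or a direction, and for the main results. After centring, 1 member was higher and 1 lower in ein3eil1, where 30.5% and 26.2% of all genes were, and 4 were higher and 1 lower in wild type, where 32.2% and 22.3% were. In phyA-211 centring gave 2 higher and 2 lower, beside 26.9% and 26.7% of all genes.

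**Figure D2:**
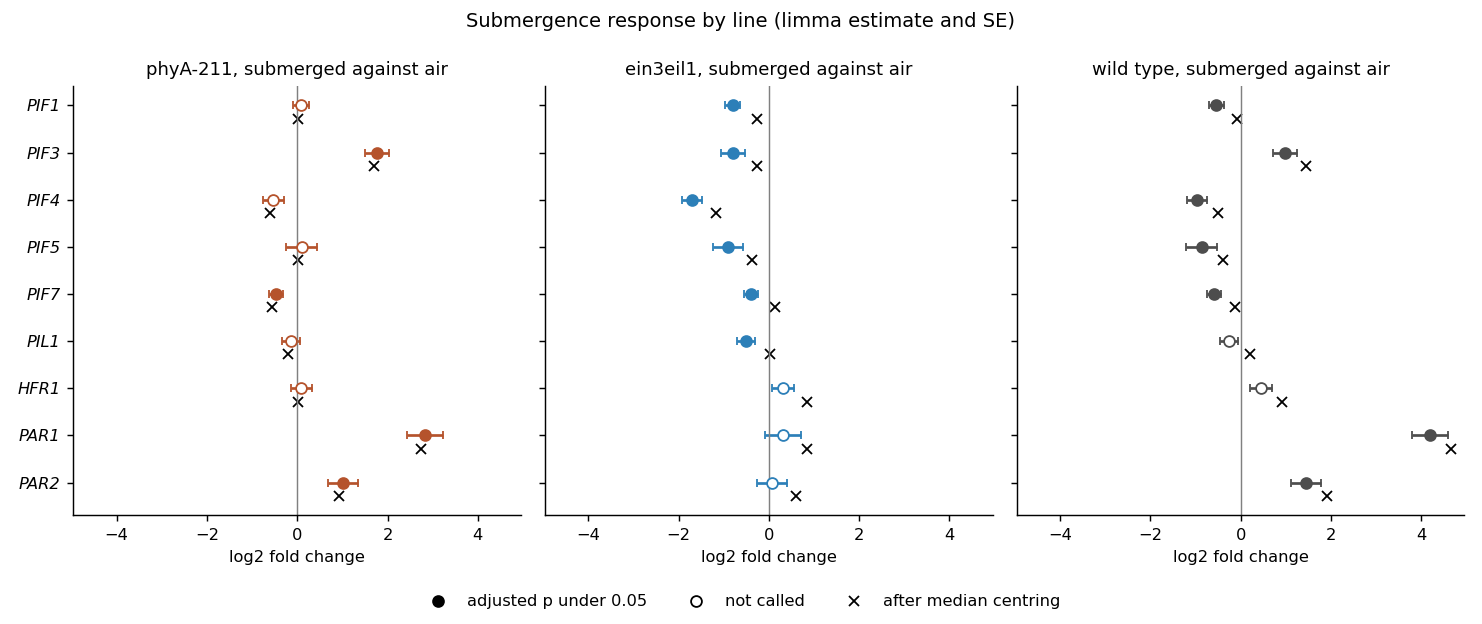
Log2 fold change, submerged against air, of the 9 tested members in phyA-211, ein3eil1 and wild type, with bars for the limma standard error (n = 3 libraries a group), filled points for adjusted p under 0.05 and crosses for the estimate after median centring. PAR1 stands at 2.82 in phyA-211, 0.31 in ein3eil1 and 4.20 in wild type, and the crosses of ein3eil1 and wild type lie to the right of their points.

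PIF3, the first PIF found to bind phytochrome and a gene whose promoter EIN3 is known to bind in seedlings, went in opposite directions in ein3eil1 and in the other lines. It had 8.94, 21.5 and 23.7 TPM in submerged phyA-211, against 3.23, 4.00 and 5.57 TPM in phyA-211 in air. In ein3eil1 it had 4.06, 4.06 and 3.47 TPM under submergence, against 8.01, 7.44 and 7.03 TPM in air. Wild type had 11.7, 10.5 and 9.27 TPM under submergence, against 5.49, 4.95 and 4.04 TPM in air. The submerged and air libraries overlapped in none of the 3 lines. The log2 fold change was 1.77 ± 0.27 in phyA-211 (SE, limma adjusted p = 4.25e-05), -0.81 ± 0.27 in ein3eil1 (adjusted p = 0.0151) and 0.98 ± 0.27 in wild type (adjusted p = 0.00548). After centring the rises were called in phyA-211 (1.70) and wild type (1.44), and the fall in ein3eil1 was not (-0.27, adjusted p = 0.218).

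Set against the other lines, the PIF3 response of ein3eil1 was lower than that of wild type by a log2 difference of -1.78 ± 0.38 (limma interaction, adjusted p = 0.00265; -1.71 centred). That of phyA-211 exceeded the response of ein3eil1 by 2.58 ± 0.38 (adjusted p = 0.000147; 1.97 centred). In submerged leaves PIF3 was lower in ein3eil1 than in wild type by a log2 difference of -1.23 (adjusted p = 0.00152). In air the ein3eil1 libraries all stood above the wild-type ones, but the log2 difference of 0.55 was not called (adjusted p = 0.121). Its limma adjusted p reached 0.0115 at lowest when 1 library was left out at a time. The difference between phyA-211 and wild type in response, 0.79, was not called with all libraries (adjusted p = 0.121), and was 1.21 without submerged phyA-211 replicate 1 (adjusted p = 0.000726).

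PIF4, which drives growth in warmth and shade, had its highest group mean in phyA-211 in air (63.7 TPM) and its lowest in submerged ein3eil1 (13.3 TPM). It had 25.5, 53.4 and 61.3 TPM in submerged phyA-211, against 61.2, 70.6 and 59.4 TPM in phyA-211 in air. Submerged ein3eil1 had 12.98, 13.65 and 13.26 TPM, against 49.7, 43.5 and 43.6 TPM in ein3eil1 in air. Submerged wild type had 30.3, 29.2 and 32.0 TPM, against 62.9, 64.5 and 54.1 TPM in wild type in air. The groups were apart in ein3eil1 and wild type and overlapped in phyA-211, where replicate 1 was low. The fall was -1.70 ± 0.22 on the log2 scale in ein3eil1 (SE, limma adjusted p = 8.19e-06; -1.17 centred, also called) and -0.96 ± 0.22 in wild type (adjusted p = 0.00174; -0.50 centred, also called). In phyA-211 the value of -0.53 was not called (adjusted p = 0.059) and was -0.60 after centring (adjusted p = 0.00318). Without replicate 1 of submerged phyA-211 it was -0.15 (adjusted p = 0.28), and that replicate alone stood at -1.28 against the air group, a value with no test.

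Under submergence PIF4 was lower in ein3eil1 than in wild type by a log2 difference of -1.14 (adjusted p = 0.0007), with no overlap of libraries. The response difference between these lines, -0.74, was not called (adjusted p = 0.0944) but passed after centring (-0.67, adjusted p = 0.0304). When 1 library was left out at a time, its lowest limma adjusted p was 0.00133. In air PIF4 was also lower in ein3eil1 without overlap, but the difference of -0.40 was not called (adjusted p = 0.17, at lowest 0.00712 with 1 library left out). Against ein3eil1 the phyA-211 response was higher by 1.17 ± 0.31 (SE, adjusted p = 0.00821), and by 0.56 after centring, which was not called (adjusted p = 0.0578).

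PIF5, which acts with PIF4 in shade and raises ethylene synthesis genes when overexpressed, had the highest TPM of the 10 genes in 1 library, 112 TPM in submerged phyA-211. That group held 28.2, 86.1 and 112 TPM, against 46.8, 79.2 and 60.1 TPM in phyA-211 in air. In ein3eil1 the values were 41.4, 52.7 and 45.6 TPM under submergence, against 84.2, 89.0 and 89.9 TPM in air. Wild type had 38.4, 39.8 and 42.8 TPM under submergence, against 71.7, 77.0 and 73.0 TPM in air. Submerged libraries were below all air libraries in ein3eil1 and wild type, and spread to both sides of them in phyA-211. The log2 fold change was 0.10 in phyA-211 (limma adjusted p = 0.83), -0.91 in ein3eil1 (adjusted p = 0.0289) and -0.86 in wild type (adjusted p = 0.0413). Neither fall was called after centring (-0.37 in ein3eil1, -0.40 in wild type), and the wild-type one was lost without any 1 of the 6 wild-type libraries (adjusted p from 0.0699 without submerged replicate 3 to 0.0949 without submerged replicate 1). The ein3eil1 fall was lost without any 1 ein3eil1 library other than submerged replicate 2 (adjusted p up to 0.0825). Leaving out 1 library of the 18, limma adjusted p at lowest reached 0.000235 for the wild-type fall and 0.000124 for the ein3eil1 one. The spread behind these values is shared with submerged phyA-211 (SD 43.0 TPM, where submerged wild type had 2.25 and submerged ein3eil1 5.74). In phyA-211 the value was 0.69 without submerged replicate 1 (adjusted p = 0.00355), and that replicate alone stood at -1.08, a value with no test.

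PIF1, which represses chlorophyll synthesis and seed germination in darkness, was lower under submergence in ein3eil1 and wild type. It had 10.7, 14.6 and 17.3 TPM in submerged phyA-211, against 12, 15.4 and 12.21 TPM in phyA-211 in air. Submerged ein3eil1 had 6.43, 9.50 and 7.10 TPM, against 14.4, 13.7 and 13.8 TPM in ein3eil1 in air. Submerged wild type had 8.62, 9.49 and 8.98 TPM, against 14.4, 14.1 and 12.2 TPM in wild type in air. The libraries overlapped only in phyA-211. The log2 values were 0.08 in phyA-211 (limma adjusted p = 0.711), -0.80 in ein3eil1 (adjusted p = 0.00073) and -0.53 in wild type (adjusted p = 0.0141). After centring neither fall was called, at -0.27 in ein3eil1 and -0.07 in wild type, and the wild-type one was also lost without air replicate 1 (adjusted p = 0.0504). PIF1 overlaps AT2G20170 on the other strand, and whether strand was kept in the libraries is not given in the sources used here.

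PIF7, the PIF that drives auxin synthesis in shade, was called lower in all 3 lines, by small amounts. After centring it was PIF4 that was called lower in all 3, and PIF7 in phyA-211 alone. Submerged phyA-211 had 19.6, 22.7 and 29.3 TPM, against 30.8, 32.7 and 36.2 TPM in phyA-211 in air. Submerged ein3eil1 had 18.4, 21.5 and 26.6 TPM, against 28.3, 30.8 and 28.3 TPM in ein3eil1 in air, and submerged wild type had 19.5, 19.3 and 21.4 TPM, against 28.7, 29.0 and 34.2 TPM in wild type in air. The groups did not overlap in any line. The log2 fold changes were -0.48 in phyA-211 (limma adjusted p = 0.0169), -0.39 in ein3eil1 (adjusted p = 0.0348) and -0.58 in wild type (adjusted p = 0.00439). After centring PIF7 was at -0.55 in phyA-211, and stood at 0.14 in ein3eil1 and -0.12 in wild type without a call. The phyA-211 call was lost without submerged replicate 1 (-0.35, adjusted p = 0.0564), without submerged replicate 2 (-0.45, adjusted p = 0.0515) and without air replicate 3 (-0.41, adjusted p = 0.0674). The ein3eil1 call was lost without any 1 ein3eil1 library other than submerged replicate 3 (adjusted p up to 0.159). PIF7 overlaps AT5G61260 on the other strand.

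PIF6, known for a role in seed dormancy, was near the limit of detection. Its highest library was at 1.3 TPM and its median over the 18 libraries was 0.49 TPM, with 1 library at 1 TPM or more. Tested without a filter on low genes, PIF6 passed in none of the 10 comparisons (limma adjusted p from 0.178 upward). It overlaps AT3G62080 and AT3G09745 on the other strand.

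Added up, PIF1, PIF3, PIF4, PIF5, PIF6 and PIF7 came to 93.6, 198 and 245 TPM in submerged phyA-211, against 155, 202 and 174 TPM in phyA-211 in air. The sum was 83.5, 102 and 96.2 TPM in submerged ein3eil1, against 183 to 185 TPM in ein3eil1 in air. It was 109, 109 and 115 TPM in submerged wild type, against 178 to 190 TPM in wild type in air. PIF4 and PIF5 made up most of each sum. Submerged phyA-211 replicate 1 fell among the submerged libraries of the other lines and its replicates 2 and 3 among or above the air libraries.

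PAR1, an inhibitor that binds PIF4 among others, had the largest fold change of the 9 tested members in phyA-211 and in wild type. It had 30.89, 19.65 and 11.95 TPM in submerged phyA-211, against 2.02, 1.57 and 2.10 TPM in phyA-211 in air. In submerged ein3eil1 it had 4.32, 0.56 and 2.02 TPM, against 1.52, 0.79 and 1.89 TPM in ein3eil1 in air. Submerged wild type had 52.9, 52.5 and 57.7 TPM, against 3.86, 1.3 and 1.43 TPM in wild type in air. Submerged libraries lay above all air libraries in phyA-211 and wild type and overlapped them in ein3eil1, so the submerged groups ran in the order ein3eil1, phyA-211 and wild type with no overlap between neighbours. The log2 fold change was 2.82 ± 0.40 in phyA-211 (SE, limma adjusted p = 2.32e-05), 0.31 ± 0.40 in ein3eil1 (adjusted p = 0.507) and 4.20 ± 0.40 in wild type (adjusted p = 3.94e-07). Centring gave 2.75, 0.85 and 4.67 for these lines, with the same calls.

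Under submergence PAR1 was lower than in wild type by -4.24 ± 0.40 in ein3eil1 (log2, adjusted p = 6.14e-07) and by -1.44 ± 0.40 in phyA-211 (adjusted p = 0.0133). The phyA-211 call was lost without submerged phyA-211 replicate 3 (-1.11, adjusted p = 0.079) and with only the 2 groups compared in the fit (adjusted p = 0.0524), and was -1.76 without replicate 1 (adjusted p = 0.00235). The response differed between ein3eil1 and wild type by -3.89 ± 0.57 (adjusted p = 0.000147) and between phyA-211 and ein3eil1 by 2.51 ± 0.57 (adjusted p = 0.00312). Between phyA-211 and wild type the difference of -1.38 was not called (adjusted p = 0.0782), and it was -1.70 without submerged phyA-211 replicate 1 (adjusted p = 0.0201).

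PAR2, the close relative of PAR1, was higher in submerged than in air-kept wild type, and in ein3eil1 stayed near its air level. Submerged phyA-211 had 46.05, 18.02 and 12.13 TPM, against 13.5, 7.77 and 10.4 TPM in phyA-211 in air. Submerged ein3eil1 had 11.2, 7.87 and 10.1 TPM, against 9.20, 8.34 and 10.1 TPM in ein3eil1 in air. Submerged wild type had 33.6, 30.0 and 30.5 TPM, against 8.88, 12.1 and 12.1 TPM in wild type in air. The groups were apart in wild type alone, and in submerged phyA-211 replicate 1 was far above replicates 2 and 3 and above every wild-type library. Between submerged phyA-211 and submerged wild type the log2 difference of -0.51 was not called (limma adjusted p = 0.232). The log2 fold change was 1.00 ± 0.33 in phyA-211 (SE, limma adjusted p = 0.0185), 0.06 ± 0.33 in ein3eil1 (adjusted p = 0.879) and 1.44 ± 0.33 in wild type (adjusted p = 0.00162; 1.91 centred, also called). The phyA-211 call was lost after centring (0.93, adjusted p = 0.0781), without submerged replicate 1 (0.48, adjusted p = 0.066) and without air replicate 2 (adjusted p = 0.0789). In submerged ein3eil1 PAR2 was lower than in submerged wild type by -1.61 ± 0.33 (adjusted p = 0.00105). The difference of response between these lines was -1.38 ± 0.47 (adjusted p = 0.0381), lost after centring (-1.31, adjusted p = 0.124). It was also lost without 11 of the 12 libraries of those lines in turn, all but submerged ein3eil1 replicate 1. Adjusted p then ran from 0.0529 without ein3eil1 air replicate 2 to 0.0864 without submerged ein3eil1 replicate 2. Over all 18 libraries left out in turn, the lowest limma adjusted p of this difference was 0.00126. Its spread is shared with submerged phyA-211, where PAR2 had an SD of 18.1 TPM (submerged wild type 1.97, submerged ein3eil1 1.70).

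The flower gene AP3 exceeded 1 TPM in 5 libraries, phyA-211 in air replicate 3 and replicates 1 and 3 of ein3eil1 in both conditions. With these left out, which leaves 1 ein3eil1 library in each condition, PAR1 (-5.15, adjusted p = 5.16e-05) and PAR2 (-1.87, adjusted p = 0.0329) were lower in submerged ein3eil1 than in submerged wild type. PIF3 (-1.17, adjusted p = 0.0711) and PIF4 (-1.10, adjusted p = 0.0575) were then not called, and the response differences between ein3eil1 and wild type were -4.40 for PAR1 (adjusted p = 0.00355), -1.72 for PIF3 (adjusted p = 0.12) and -1.52 for PAR2 (adjusted p = 0.292). Here the lone library of a group is assumed to vary like the other groups.

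The upstream sequences of PAR1 and PAR2 are shown because these 2 genes moved together, with a Pearson correlation of 0.905 over the 18 libraries. They come from the RefSeq genome of build TAIR10.1, while the submitters' processing notes name TAIR10, and read 5′ to 3′ on the gene's strand, the minus strand for both. The first pair covers the 250 bases before the annotated start, chr2:17837619-17837868 for PAR1 and chr3:21760391-21760640 for PAR2, with capitals for a PIF-box, CACATG on either strand.
PAR1, 250 bases: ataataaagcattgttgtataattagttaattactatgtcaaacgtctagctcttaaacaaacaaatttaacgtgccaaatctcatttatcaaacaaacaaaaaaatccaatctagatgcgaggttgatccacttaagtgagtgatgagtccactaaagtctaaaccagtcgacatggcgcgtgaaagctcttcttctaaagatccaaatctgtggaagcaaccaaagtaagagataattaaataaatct
PAR2, 250 bases: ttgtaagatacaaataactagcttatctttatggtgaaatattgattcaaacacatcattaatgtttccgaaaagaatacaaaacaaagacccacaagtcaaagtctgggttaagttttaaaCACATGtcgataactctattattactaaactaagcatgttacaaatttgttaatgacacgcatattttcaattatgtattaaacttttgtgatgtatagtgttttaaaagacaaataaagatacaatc
The second pair covers bases 790 to 691 before the start, chr2:17838309-17838408 for PAR1 and chr3:21761081-21761180 for PAR2, with the same capitals, and the PAR2 run CACATGTG holds 2 overlapping boxes.
PAR1, far stretch: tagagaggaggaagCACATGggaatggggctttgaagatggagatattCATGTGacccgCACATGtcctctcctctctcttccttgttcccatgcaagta
PAR2, far stretch: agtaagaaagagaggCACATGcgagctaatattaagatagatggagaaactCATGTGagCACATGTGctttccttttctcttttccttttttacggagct
The PAR1 stretch holds 3 boxes and overlaps AT2G09405, annotated as a long noncoding RNA, and the PAR2 stretch holds 4. Over the whole 1000 bases before the start PAR1 held 4 boxes and PAR2 held 5. Of 27443 protein-coding promoters, 0.558% held 4 or more. The cut-off of 4 equals the PAR1 count and the far stretch holds most of the boxes, so this share is a description and no test.

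The same motif and 3 others were counted in all 10 members. Within 250 bases before to 50 after the start, the G-box CACGTG stood in 1 member (PIF5), where 7.68% of all promoters held it, and the PIF-box in 2 (PIF7 and PAR2), where 12.9% did. The evening element AAATATCT, in 5.65% of promoters, and the EIN3-type letters ATGNANCT, in 14.8%, were found in 0 members in that window. In the 1000 bases before the start the EIN3-type letters stood in PIF6, PIL1, HFR1 and PAR2, where 48.2% of all promoters held them, the evening element in PIF6 and PIF7 (15.3%), the G-box in PIF5, PIF6, HFR1 and PAR1 (14.8%) and the PIF-box in PIF4, PIF7, HFR1, PAR1 and PAR2 (37.7%). All were searched on both strands. A match here describes letters in a window and no binding. On chromosome 2 PAR1 lies 48.5 kb from PIF4, with 15 protein-coding genes between them, and on chromosome 3 PAR2 lies 67.5 kb from PIF5, with 21 between.

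HFR1, which pairs with PIF4 and PIF5 and blocks them, stayed between 0.32 and 1.75 TPM in all libraries. Submerged phyA-211 had 1.41, 0.56 and 1.56 TPM, against 0.83, 0.58 and 1.75 TPM in phyA-211 in air. Submerged ein3eil1 had 0.99, 1.20 and 1.11 TPM, against 0.63, 0.37 and 1.20 TPM in ein3eil1 in air, and submerged wild type had 1.07, 0.91 and 1.27 TPM, against 0.32, 0.45 and 0.82 TPM in wild type in air. The groups were apart in wild type alone. No line gave a call (log2 0.09 in phyA-211, 0.30 in ein3eil1 and 0.46 in wild type, limma adjusted p = 0.775, 0.283 and 0.12 in that order). After centring HFR1 was higher in ein3eil1 (0.84, adjusted p = 0.0133) and wild type (0.92, adjusted p = 0.00813). The antagonists HFR1, PAR1 and PAR2 summed to 25.6 to 78.4 TPM in submerged phyA-211, 9.63 to 16.5 TPM in submerged ein3eil1 and 83.5 to 89.5 TPM in submerged wild type, and to 9.50 to 16.3 TPM in the air groups.

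PIL1, a gene that PIFs switch on quickly in shade, was low in every library. Submerged phyA-211 had 0.28, 0.34 and 0.61 TPM, against 0.45, 0.50 and 0.67 TPM in phyA-211 in air. Submerged ein3eil1 had 0.55, 0.36 and 0.31 TPM, against 1.05, 1.09 and 0.88 TPM in ein3eil1 in air, and submerged wild type had 0.36, 0.39 and 0.51 TPM, against 0.34, 1.45 and 0.47 TPM in wild type in air. Submerged and air libraries were apart in ein3eil1, where the log2 fold change of -0.51 was called (limma adjusted p = 0.0321). It was 0.02 after centring (adjusted p = 0.944), and was lost without air replicate 1 or 2 or submerged replicate 2 or 3 (adjusted p up to 0.093). The values in phyA-211 (-0.13) and wild type (-0.25) were not called, and the highest library of all, at 1.45 TPM, was 1 of the 3 wild-type air libraries.

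In air, calls between lines depended on the scaling for ein3eil1. In phyA-211 against wild type in air 0 of 9 were called in either direction, also at an unadjusted p under 0.05, and 1.63% of all genes were called higher and 2.38% lower. After centring 0 members were called too, beside 1.9% and 2.62% of genes. The submerged plants of these lines differed in PIF1, higher in phyA-211 by a log2 value of 0.58 (limma adjusted p = 0.0169), and in PAR1, so that 1 member was called higher and 1 lower, beside 32.7% and 6.44% of all genes. PIF1 was lost without submerged wild-type replicate 1 (adjusted p = 0.0549) and without submerged phyA-211 replicate 2 (0.0645) or 3 (0.0928). It was not called after centring (0.11, adjusted p = 0.452), with 0 members higher and 1 lower, beside 11.6% and 20.2% of all genes. In ein3eil1 against wild type in air 0 members were called, also at an unadjusted p under 0.05, beside 25.6% of genes higher and 2.73% lower. There the median over all genes was 0.37, and after centring PIF1 (-0.40), PIF4 (-0.84) and PIF7 (-0.51) were called lower, 3 members where 7.64% of all genes were lower and 4.05% higher. Under submergence 4 members were lower in ein3eil1 (PIF3, PIF4, PAR1 and PAR2) and 0 higher, also at an unadjusted p under 0.05, beside 16% of genes lower and 28.5% higher. Centring added PIF1 (-0.59, adjusted p = 0.000562) to make 5 lower and 0 higher, with 30.1% of genes lower and 18.9% higher.

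**Figure D3:**
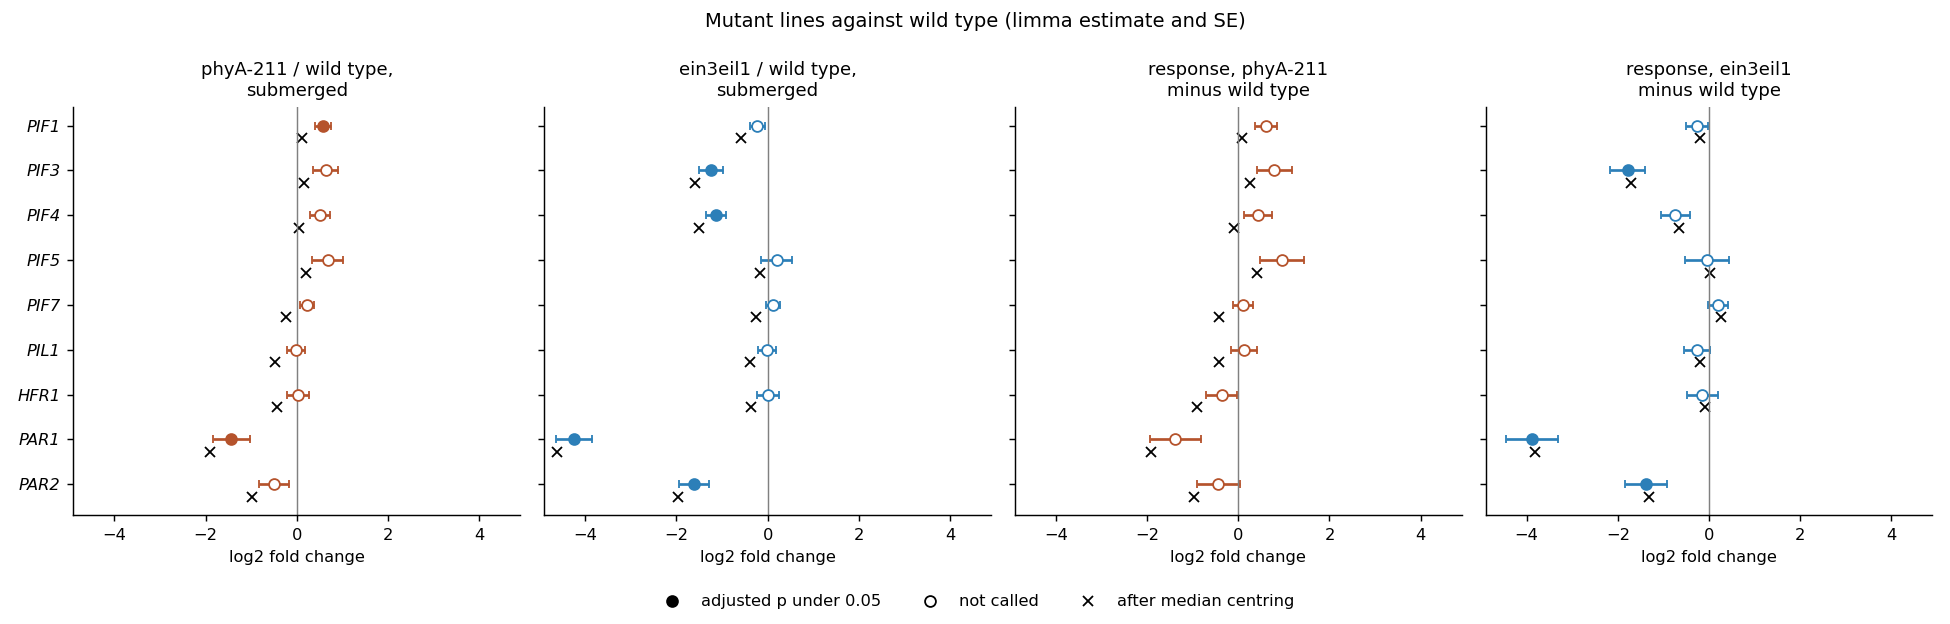
Log2 differences of the 9 tested members between mutant and wild type under submergence (left pair of panels) and between their submergence responses (right pair), with bars for the limma standard error, filled points for adjusted p under 0.05 and crosses for the estimate after median centring. PAR1 is at -4.24 and PIF3 at -1.23 for ein3eil1 against wild type under submergence, and no point is filled in the panel of the phyA-211 response minus the wild-type one.

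The responses of the lines share their control groups, so the 3 differences between them are not independent. For phyA-211 minus wild type 0 members were called, with 2 at an unadjusted p under 0.05, beside 20.4% of genes positive and 4.19% negative. After centring 0 were called too, beside 6% and 11.7%. Without submerged phyA-211 replicate 1, 4 members were positive (PIF1 at 0.79, PIF3 at 1.21, PIF4 at 0.81 and PIF5 at 1.55) and 2 negative (PAR1 at -1.70 and PAR2 at -0.96), beside 41% and 9.82% of genes. The median over all genes was then 0.45. The submerged levels gave the same split without that library, with PIF1 (0.75), PIF3 (1.04), PIF4 (0.89) and PIF5 (1.27) higher and PAR1 (-1.76) and PAR2 (-1.03) lower than in wild type, beside 44.9% and 10.6% of genes. With replicate 1 as the only library of its group, whose spread then comes from the other groups, 0 members were called in either comparison, where 3.24% of all genes were called for the submerged levels and 1.26% for the responses. For ein3eil1 minus wild type 3 members were negative (PIF3, PAR1 and PAR2) and 0 positive, beside 16.6% and 10.8% of genes. At an unadjusted p under 0.05 there were 4, all negative, with PIF4 as the fourth. The centred calls were 3 negative and 0 positive, beside 13.1% of genes each way, with PIF4 in place of PAR2. For phyA-211 minus ein3eil1 4 members were positive (PIF1, PIF3, PIF4 and PAR1) and 0 negative, also at an unadjusted p under 0.05, beside 37.7% and 8.82% of genes. After centring PIF3 and PAR1 were positive and PIF7 negative (-0.69, adjusted p = 0.0144), beside 12% and 16.6% of genes.

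Other genes of the pathway, from lists chosen for their known roles, were counted in the same fit. Genes named for some lines only were mostly picked by adjusted p in those lines, and may have changed in the others too. The counts of every list below stand beside the shares of all tested genes. These were 27.3% higher and 23.9% lower in phyA-211, 17% and 47.3% in ein3eil1, and 18.9% and 38% in wild type. After centring they were 26.9% and 26.7%, 30.5% and 26.2%, and 32.2% and 22.3%. The median log2 fold changes of all tested genes were 0.07, -0.48 and -0.32 in that order of lines. Of 16 tested genes known to be raised by PIFs, 8 were higher and 3 lower under submergence in phyA-211, 7 and 4 in ein3eil1, and 7 and 3 in wild type, with medians of 0.72, 0.35 and 0.29 in log2 in that order of lines. After centring the counts were 8 and 3, 9 and 2, and 10 and 1. YUC5, an auxin synthesis gene, stood at 11.0 ± 2.74 TPM in submerged phyA-211 and 0.160 ± 0.0361 TPM in phyA-211 in air (SD, n = 3), at 4.9 ± 1.3 and 0.270 ± 0.185 TPM in ein3eil1, and at 6.02 ± 0.206 and 0.310 ± 0.254 TPM in wild type, submerged before air each time. It rose by 3.34, 2.2 and 2.44 on the log2 scale in those lines (largest limma adjusted p = 1.87e-07). HAT2, a homeodomain gene of the shade response, rose by 2.36 in wild type (adjusted p = 6.76e-08), FHL, a gene for phytochrome A nuclear import, by 2.82 in phyA-211 (adjusted p = 2.43e-09) and ACS8, of ethylene synthesis, by 3.57 in ein3eil1 (adjusted p = 2.82e-07).

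**Figure D4:**
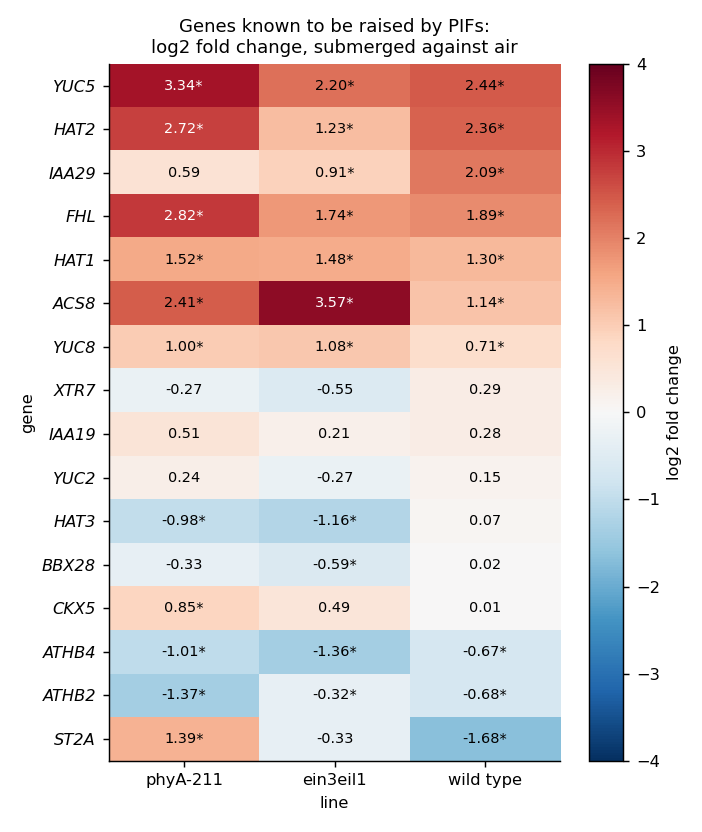
Log2 fold change, submerged against air, of the 16 tested genes known to be raised by PIFs (rows) in phyA-211, ein3eil1 and wild type (columns), with red for higher, blue for lower, the value in each cell and a star for adjusted p under 0.05. YUC5 is starred in all 3 lines at 3.34, 2.2 and 2.44, and ST2A is starred with opposite signs in phyA-211 (1.39) and wild type (-1.68).

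Genes known to be lowered by PIFs, most of them for chlorophyll, carotenoids and light harvesting, were mostly lower under submergence. Of 7 tested, 6 were lower in phyA-211, 7 in ein3eil1 and 7 in wild type, with medians of -1.62, -2.35 and -2.69, and 6, 5 and 5 after centring. GLK1, a transcription factor of chloroplast development, had 19.6 ± 1.21 TPM in submerged phyA-211 and 341 ± 20.2 TPM in phyA-211 in air (SD, n = 3), a log2 change of -4.06 (limma adjusted p = 1.57e-11), with -3.79 in ein3eil1 and -4.09 in wild type. LHCB2.2, a light-harvesting gene, changed by -4.95 in phyA-211, -4.55 in ein3eil1 and -4.52 in wild type. The 4 leaf markers, which are photosynthesis genes too, summed to 6741 to 8066 TPM in submerged phyA-211, against 15836 to 30483 TPM in phyA-211 in air. They summed to 6068 to 12629 TPM in submerged ein3eil1, against 16060 to 16955 TPM in ein3eil1 in air, and to 15584 to 17297 TPM in submerged wild type, against 25926 to 28243 TPM in wild type in air. Their part in these counts was not tested.

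The genes that control PIF protein went both ways. Of 19 tested, 6 were higher and 6 lower in phyA-211, 3 and 11 in ein3eil1, and 2 and 8 in wild type, and 6 and 6, 4 and 8, and 7 and 6 after centring. SPA3, a partner of the light-signalling ubiquitin ligase COP1, fell by 1.90, 2.15 and 2.69 on the log2 scale in those lines, and SPA1 fell by 2.86 in wild type (limma adjusted p = 2.39e-07). RGL2, a DELLA growth repressor, fell by 2.79 in ein3eil1 (adjusted p = 1.21e-07). EBF2, whose F-box protein marks EIN3 and also PIF3 for breakdown and which EIN3 activates, had 293 ± 117 TPM in submerged phyA-211 and 22.5 ± 5.51 TPM in phyA-211 in air (SD, n = 3), a log2 change of 3.58 (adjusted p = 1.51e-07). It stood at 8.50 ± 3.85 TPM in submerged ein3eil1 and 8.83 ± 1.14 TPM in ein3eil1 in air, and at 103 ± 5.19 TPM in submerged wild type and 25.6 ± 4.31 TPM in wild type in air.

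Among the 5 phytochrome genes, 3 were higher and 0 lower in submerged phyA-211, 0 and 1 in ein3eil1, and 1 and 2 in wild type, and 3 and 1, 2 and 1, and 2 and 2 after centring. PHYA itself rose by 2.21 in phyA-211 (limma adjusted p = 1.07e-07) and by 0.92 in wild type (adjusted p = 0.000734), and PHYC changed by -1.11 in ein3eil1 (adjusted p = 0.00232) and -1.15 in wild type (adjusted p = 0.00212). PHYB, whose protein is the main light sensor acting on PIFs, changed by -1.39 in wild type (adjusted p = 0.00507; -0.92 centred, also called). In phyA-211 it was at 0.19, not called. PHYB was at -0.71 in ein3eil1, not called, where its 3 submerged and 3 air libraries averaged 13.5 ± 3.64 and 22.2 ± 0.834 TPM (SD, n = 3). In submerged leaves PHYB was called higher in phyA-211 and in ein3eil1 than in wild type. Both calls held after centring (0.84 and 1.25, limma adjusted p = 0.0351 and 0.00191).

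Of 16 related bHLH and helix-loop-helix genes 9 were tested, with 3 higher and 3 lower under submergence in phyA-211, 3 and 4 in ein3eil1, and 4 and 1 in wild type, and 2 and 3, 4 and 3, and 6 and 1 after centring. KDR (AT1G26945), a helix-loop-helix gene that binds HFR1 and frees PIFs, rose by 2.11 in phyA-211 and 2.95 in wild type (limma adjusted p = 1.81e-05 and 6.15e-07). Its libraries had 222, 120 and 67.1 TPM in submerged phyA-211 and 122, 129 and 121 TPM in submerged wild type, so replicate 1 of phyA-211 was the highest here as for PAR1 and PAR2. UNE10 (AT4G00050), also named PIF8 and not a member here, is a bHLH gene close to PIF7. It fell by 2.51 in ein3eil1 (adjusted p = 2.19e-07) and by 1.29 in wild type (adjusted p = 0.000233). HBI1, a growth-promoting bHLH gene, rose by 1.93 in phyA-211 (adjusted p = 3.42e-06), and BNQ2 (AT5G15160) fell by 1.72 in ein3eil1 (adjusted p = 0.000168).

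Clock genes, which set the time of day at which PIF4 and PIF5 are transcribed, also differed between submerged and air plants. Of 10 tested, 4 were higher and 3 lower in phyA-211, 3 and 5 in ein3eil1, and 5 and 5 in wild type, and 4 and 3, 5 and 2, and 5 and 5 after centring. PRR9, a morning gene, had 1.53 ± 0.326 TPM in submerged phyA-211 and 38.9 ± 5.55 TPM in phyA-211 in air (SD, n = 3), and changed by -3.98, -3.43 and -3.82 in phyA-211, ein3eil1 and wild type (largest limma adjusted p = 4.96e-09). TOC1, an evening gene, rose by 2.71, 1.79 and 2.12 in those lines. The hour at which submerged and air plants were collected is not given in the sources used here, and its part in these values, and in those of the members, was not tested.

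Across the 18 libraries, which fall into 6 groups and share the overall shifts of scale given above, the members' log2 levels were correlated as follows, as a description. PIF1 went with PIF4 (r = 0.876) and PIF5 (0.802), PAR1 with PAR2 (0.905), and PIF3 lay nearer PAR1 (0.661) than PIF4 (0.208). PIF7 ran opposite to PAR1 (-0.678) and PIF5 opposite to PAR2 (-0.667). The gene most like PAR1 among tested nuclear genes outside the group was AT1G44830 (r = 0.973), then AT4G01335 (0.967) and AT5G40590 (0.966). For PAR2, AT3G49910 (0.965) and AT5G60670 (0.963) came first. For PIF3 they were AT1G75800 (0.969), HD2C (0.962) and AMP1 (0.956), and for PIF4 AT2G42750 (0.973), NUDT2 (0.971) and AT1G78890 (0.971). PIF1 was most like AT5G03900 (0.963), UMAMIT2 (0.954) and TCP14 (0.953), and PIF5 most like AT2G35680 (0.961), AT5G06580 (0.954) and AT1G52780 (0.952). PIF7 was most like AKR4C8 (0.919), AT5G43950 (0.914) and AT4G17840 (0.904), and PIL1 like AT5G40540 (0.837), GolS3 (0.830) and AT5G47330 (0.824).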

How the data were processed

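RNA was taken from leaves, and 18 libraries were sequenced, 3 in each of 6 groups. The deposited table gives one TPM value per gene and library, made by the authors from reads handled with fastp, cutadapt and HISAT2 on TAIR10, per the submitters' processing notes, which give no versions and also name DESeq2. The unit was read from the values, and since TPM values do not show how many reads lie behind them, intervals for counting error were not computed. Genes at 1 TPM or more in at least 3 libraries (20302 of 32833) entered one limma 3.58.1 fit (R 4.3.3, trend, robust) on log2(TPM + 1) over all 18 libraries without a block, with Benjamini-Hochberg adjustment over all tested genes and a threshold of 0.05. All adjusted p-values are limma's; an exact test of 3 against 3 cannot go below 0.1. Each of 10 comparisons was refitted under 10 other settings and without each of the 18 libraries. All members are named, and of each other list at most the 2 genes with the smallest adjusted p per line. ST2A, and PHYB outside the ein3eil1 response, are exceptions, chosen after their values were seen. The members and lists were chosen with earlier results of these data known. Protein sequences were not used here. One gene similar in pattern to a member is not reported here.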

Additional observations from a re-analysis of the deposited data

Results flagged for a closer look

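The submergence response differed between lines by a test of the difference itself (limma interaction) for 7 values. Against wild type, ein3eil1 had a lower log2 response of PIF3 (-1.78, adjusted p = 0.00265), PAR1 (-3.89, adjusted p = 0.000147) and PAR2 (-1.38, adjusted p = 0.0381), 3 of 9 members where 27.4% of all genes were called. Against ein3eil1, phyA-211 had a higher response of PIF1 (0.88, adjusted p = 0.00901), PIF3 (2.58, adjusted p = 0.000147), PIF4 (1.17, adjusted p = 0.00821) and PAR1 (2.51, adjusted p = 0.00312), 4 of 9 members where 46.5% of all genes were called. After median centring PAR2 in the first comparison (-1.31, adjusted p = 0.124) and PIF1 (0.27, adjusted p = 0.215) and PIF4 (0.56, adjusted p = 0.0578) in the second were no longer called. The ein3eil1 libraries enter all 7 values, so these are not independent.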

How the results depend on the processing

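Of the members' single values under other settings, 2376 kept their direction and side of the threshold, 89 lost a call, 50 gained one and 5 reversed. The reversals were PIF7 (0.14) and PIL1 (0.0201) in submerged ein3eil1 after median centring, PIF1 in ein3eil1 against wild type in air after centring (-0.40) and quantile normalization (-0.42), and PIF5 in submerged phyA-211 with replicate 1 as its group's only library (-1.08). The number of members called under submergence in phyA-211 was 4, and 2 with only the groups compared, while 51.2% of all genes were called, against 31.8%. In ein3eil1 it was 6, against 2 after centring, 3 after quantile normalization and 1 without the AP3 libraries, while 64.2% of all genes were called, against 56.7%, 58.4% and 27.8% under those settings. Between submerged phyA-211 and submerged wild type it was 2, against 1 after centring or quantile normalization and 0 with only the groups compared. Of all genes 39.1% were called there, against 31.9%, 24.7% and 6.74%. For ein3eil1 against wild type it was 4 under submergence, where 44.5% of all genes were called. In air it was 0, against 3 after centring, quantile normalization or with only the groups compared, and 2 with group-level weights. The share of all genes in air was 28.3%, against 11.7%, 11.5%, 47.7% and 52.6%. Without the AP3 libraries, fewer members and a smaller share of all genes were called in every comparison above but that in air. The same held for the response differences of ein3eil1 minus wild type and phyA-211 minus ein3eil1. The settings on replicate 1 and AP3 were chosen after seeing the data, and a group of 1 library takes its spread from the others.

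Leaving out 1 library at a time gave 3 to 6 calls in submerged ein3eil1 (3 without air replicate 1 or 2), 0 to 6 between submerged phyA-211 and submerged wild type, 0 to 2 for ein3eil1 against wild type in air, and 0 to 6 for the phyA-211 minus wild-type response. The 6 calls came without submerged phyA-211 replicate 1, and the 0 under submergence without its replicate 3, with 1 call without its replicate 2 or wild-type replicate 1. The 2 calls in air, PIF3 higher and PIF4 lower in ein3eil1, came without submerged phyA-211 replicate 1. The phyA-211 minus wild-type response gave 1 call without phyA-211 air replicate 2 or submerged ein3eil1 replicate 2. With a replicate block the phyA-211 minus wild-type response gave 1 call, PAR1, and no other count changed. Same-numbered libraries correlated at -0.38 to 0.44 over 45 pairs, and 0 of 15 group pairs had every correlation over 0.1, so the numbers were not taken as pairs. Members near or under 1 TPM (PIF6, PIL1 and HFR1) are limited by depth, which is unknown. So is PAR1 in submerged ein3eil1, at 0.56 to 4.32 TPM, and in the air groups, at 0.79 to 3.86 TPM.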
